A study of Homo sapiens with 4 samples.

Results

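Cytokine signaling through the common gamma chain begins when interleukins such as IL-2, IL-7 and IL-15 join receptor chains at the T cell surface. The receptors carry no kinase activity of their own and depend on bound Janus kinases (JAKs), which phosphorylate STAT proteins so that these enter the nucleus and switch on genes. Among the induced genes are SOCS proteins, which in turn block the kinases. The 9 genes studied here were IL2RG (the common gamma chain itself), the kinases JAK1 and JAK3, the transcription factors STAT2, STAT3, STAT5A and STAT5B, the interferon-induced transcription factor IRF1, and the inhibitor SOCS1. A peak was taken as belonging to one of them where its first-listed gene identifier mapped to that symbol. The symbol came from the supplemental target list of the study, of which only the first 1999 entries were used here, or otherwise from the GRCh38 gene on the same strand. All 24 peaks found were named by the gene on the same strand.

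These 24 peaks, of 18993 in the whole list, belonged to 7 of the 9 genes. The list carried 8478 gene identifiers, and 6971 of them received a symbol. For STAT2 and JAK3, no same-strand peak of the list touched the gene. A gene without a peak has no value in this list, so nothing is said here about its level or its association with PRMT5.

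The data came from Jurkat, an established human leukemic T cell line grown in RPMI medium with serum, with no genetic change named in the labels. All samples were kept with PHA, a lectin that activates T cells, for 48 hours, and then exposed to UV light, which the labels give as 264 nm and 400 mJ and the study's methods as another wavelength. PRMT5 RIP, the RNA recovered with PRMT5 through a FLAG antibody according to the series' design text (which tagged protein the cells carried is not stated there), had 2 samples, and Input, the RNA of the lysate, had 2 samples. For every peak the authors deposited a single pooled value of each kind, PRMT5 RIP and Input, as RPM, that is reads scaled to a common library size. No replicate spread or test could therefore be given for any value, no order between neighbouring genes could be set against an error, and no immunoprecipitation without PRMT5 was analysed here. Of 11 T cell marker genes, 9 had a peak in the list, TRBC1 and TRBC2 being without one. None of 3 monocyte and none of 3 epithelial markers had one. Of 3 B cell markers CD79A had 2 peaks, with 37.3 RPM in Input, which lies within the range of the T cell markers. The markers without a peak have no value in this list.

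The peaks that lay nearest to the 5′ ends of these genes reached, or came within a few bases of, the transcription start that RefSeq gives (GRCh38.p14) in 6 of the 7 genes. Their position is shown in the sequences below, because it decides which part of the transcript the RPM values refer to. Each sequence runs 5′ to 3′ on the strand of the gene, from 10 bases before the start to 20 bases from it onward, and capitals mark the bases inside the deposited peak. They lie at chrX:71111558-71111587 for IL2RG, chr1:64966530-64966559 for JAK1, chr17:42388423-42388452 for STAT3, chr17:42276372-42276401 for STAT5B, chr5:132490754-132490783 for IRF1 and chr16:11256185-11256214 for SOCS1, all on the minus strand.
IL2RG: ggttcctgacacaGACAGACTACACCCAGG
JAK1: GGGAGGCGGTGCGTCGCTGAGCGCAGGCCG
STAT3: gggttccgacgtcgcAGCCGAGGGAACAAG
STAT5B: GAGGAGAGTCGGCGGCCGGAGCCGTCACCC
IRF1: ctgcccTGGCAGAGCTCGCCACTCCTTAGT
SOCS1: ggcgggcgccgaacagagcgagcTGCGGCC

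The peak began 3 bases after the RefSeq start in IL2RG, 5 bases after it in STAT3 and 13 bases after it in SOCS1. In IRF1 it began 4 bases before the start and in JAK1 13 bases before a start that lies inside the gene, 1 of 3 in the table. The STAT5B peak covered the 1 start in the table, at 42276391, which also lies inside the gene. The 5′ end of the STAT5B gene is at 42288370. From that start the peak ran 11409 nt further upstream, still within the gene, so it is not a peak of that start alone. In the first 50 transcribed bases, G and C made up 52% in IL2RG, 70% in STAT3 and in IRF1, 74% in SOCS1, 76% in JAK1 and 82% in STAT5B. Over the 35116 starts of the table the median was 60%, with quartiles of 50% and 70%. STAT5A had no peak near any of its 3 starts, and in the first 50 bases from its start at 42288498 G and C made up 78%.

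Over the 24 peaks, RPM was higher in PRMT5 RIP than in Input in 23, where 96.0% of all peaks in the list had a higher value. A PRMT5 RIP value of at least 2 times Input was seen in 12 of the 24 peaks, or 50%, beside 56.6% of all peaks. The median log2 ratio of the 24 peaks was 0.97, against 1.10 for the whole list. All log2 ratios here were taken after adding 0.01 RPM to both values, while plain ratios had nothing added. The cytokine signaling genes as a set thus lay close to the rest of the list. They differed widely among themselves, with peak ratios from 0.954 in IL2RG to 13.5 in SOCS1. By summed RPM, 3 of the 7 genes (JAK1, STAT5B and SOCS1) reached 2 times Input, beside 62.7% of all genes.

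IL2RG encodes the receptor chain shared by the receptors for IL-2, IL-4, IL-7, IL-9, IL-15 and IL-21. It lies on the minus strand of chromosome X from 71107404 to 71111577 and had the highest RPM and the lowest ratio of the 7 genes (ENSG00000147168.14). Summed over its 3 peaks it had 120.9 RPM in PRMT5 RIP against 107.8 RPM in Input, a ratio of 1.12 that was above only 4.59% of all genes. Its Input sum was above 95.2% of all genes.

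The ratios of the 3 peaks of IL2RG fell in the order of their 5′ edges. They do not show a stepwise decline along the gene, because the third peak lay inside the second, which reached further toward the 3′ end. The first, chrX:71110901-71111574, had 29.0 RPM in PRMT5 RIP against 19.5 RPM in Input, a ratio of 1.49. The second, chrX:71106755-71110617, had 68.3 RPM against 63.5 RPM, a ratio of 1.07, and ran 649 nt past the 3′ end of the RefSeq gene. The third, chrX:71107704-71107921, had 23.6 RPM against 24.8 RPM and was the one peak with a lower value in PRMT5 RIP, with a ratio of 0.954. It lay wholly within the second peak, so reads of this stretch can enter the sum of the gene in both. Whether they do is not known, because the counting is not described. The first and second peaks also listed another identifier, ENSG00000285171.1. With these left out only the nested peak remained, and the direction turned, with a log2 ratio of -0.069 in place of 0.17.

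Low ratios were also seen in the T cell markers, whose summed Input ran from 3.46 RPM in CD2 to 417.1 RPM in CD3D. The 9 T cell markers with a peak, among them the antigen receptor chain CD3D and the kinase LCK, had ratios of summed RPM from 1.03 to 1.53. None of them reached 2 times Input, beside 62.7% of all genes. In the whole list the ratio fell as Input rose: its median was 3.88 in peaks with under 0.1 RPM in Input, 2.33 from 0.1 to 1 RPM, 1.87 from 1 to 10 RPM, 1.60 from 10 to 100 RPM and 1.44 from 100 RPM up. In the lowest class a ratio above 1 was nearly fixed by the list, since 99% of all its peaks had at least 0.14 RPM in PRMT5 RIP. The 3 IL2RG peaks all belonged to the class from 10 to 100 RPM, in which 30.2% of peaks reached 2 times Input. Whether depth had a part in the ratio of any gene here was not tested.

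JAK1 is the kinase that pairs with JAK3 at common gamma receptors and also serves interferon receptors. The gene lies on the minus strand of chromosome 1 from 64833229 to 65067746 (ENSG00000162434.14) and had 2.90 RPM in PRMT5 RIP against 0.97 RPM in Input summed over 2 peaks, a ratio of 2.99. Nearly all of this came from the peak at the internal start, chr1:64966265-64966562, with 2.74 RPM against 0.92 RPM and a ratio of 2.98. The other, chr1:64886317-64886341, was 25 nt wide and had 0.16 RPM against 0.05 RPM. Its ratio of 3.20 is known only loosely, since rounding of the deposited values to 0.01 alone allows 2.82 to 3.67. It was near the lower edge of the list, in which 99% of peaks had at least 0.14 RPM in PRMT5 RIP, and 99.8% of the peaks with under 0.1 RPM in Input were at 2 times Input or more.

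STAT3 transmits signals of IL-6 and IL-21, and STAT5A and STAT5B, close paralogs, transmit those of IL-2 and IL-7. The 3 genes are neighbours on chromosome 17. STAT5A, on the plus strand, is separated from STAT3 by 1380 nt, and it shares 932 nt with the STAT5B gene on the minus strand. Among the 3, the ratio of summed RPM was 2.75 in STAT5B, 1.90 in STAT3 and 1.89 in STAT5A. The last 2 values cannot be ranked without a spread.

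STAT3 lies from 42313324 to 42388442 (ENSG00000168610.16) and had 6 peaks, the most of the 7 genes, with sums of 7.30 RPM in PRMT5 RIP against 3.85 RPM in Input. The first peak, chr17:42374191-42388437, spanned 14247 nt from the start of the gene and had 2.43 RPM against 0.91 RPM, a ratio of 2.67. The second, chr17:42348397-42348521, was the most abundant and the least enriched, with 2.85 RPM against 2.01 RPM and a ratio of 1.42. By this peak alone the log2 ratio of STAT3 would be 0.50 in place of 0.92.

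The next 3 peaks of STAT3 all exceeded 2 times Input at low RPM. At chr17:42345636-42346596 there were 0.45 RPM against 0.21 RPM. At chr17:42345561-42345610, 25 nt further on, there were 0.49 RPM against 0.18 RPM. At chr17:42337462-42337561 there were 0.82 RPM against 0.38 RPM. Their ratios were 2.14, 2.72 and 2.16. The last peak, chr17:42316837-42316861, lay at 95.3% of the gene length, with 0.26 RPM against 0.16 RPM and a ratio of 1.63. Thus 4 of the 6 STAT3 peaks reached 2 times Input, beside 56.6% of all peaks in the list. These 4 had an Input from 0.1 to 1 RPM, a class in which 62.8% of all peaks reached that fold. The 2 that did not were the most abundant peak and the one nearest to the 3′ end. The latter, with 0.16 RPM in Input, belonged to the same class.

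STAT5A lies from 42287439 to 42311943 (ENSG00000126561.18) and had 4.60 RPM in PRMT5 RIP against 2.44 RPM in Input over 5 peaks, the first of which began 18873 nt from the 5′ end of this gene of 24505 nt. Of these, 3 lay in its last 1000 nt. The peak chr17:42311079-42311203 had 1.46 RPM against 0.64 RPM, the only STAT5A peak above 2 times Input, with a ratio of 2.28. Of all peaks in the list, 56.6% reached that fold. The peak chr17:42311229-42311278, which follows after 25 nt, had 0.58 RPM against 0.34 RPM and a ratio of 1.71. The peak chr17:42311529-42311653 had 1.88 RPM against 1.02 RPM and a ratio of 1.84.

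Further from the 3′ end of STAT5A, chr17:42306312-42306336 had 0.29 RPM against 0.16 RPM and chr17:42307637-42307661 had 0.39 RPM against 0.28 RPM. Rounding alone leaves the ratio of the first between 1.73 and 1.90 and that of the second between 1.35 and 1.44. Over the 5 peaks the ratio ran from 1.39 to 2.28.

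STAT5B had 1 peak, at the opposite end of the gene (ENSG00000173757.11, from 42199177 to 42288370). This peak, chr17:42276262-42287800, spanned 11539 nt and had 2.17 RPM in PRMT5 RIP against 0.79 RPM in Input. Its last 362 nt, at the 5′ end of the gene, overlie STAT5A on the other strand. No plus-strand peak overlapped it. The paralogs therefore differed in the place of their peaks, 5′ in STAT5B and 3′ in STAT5A, and their ratios refer to different parts of the transcripts. Reads that fit both paralogs could be assigned to either, and how the authors treated them is not given in the sources used here.

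**Figure D1:**
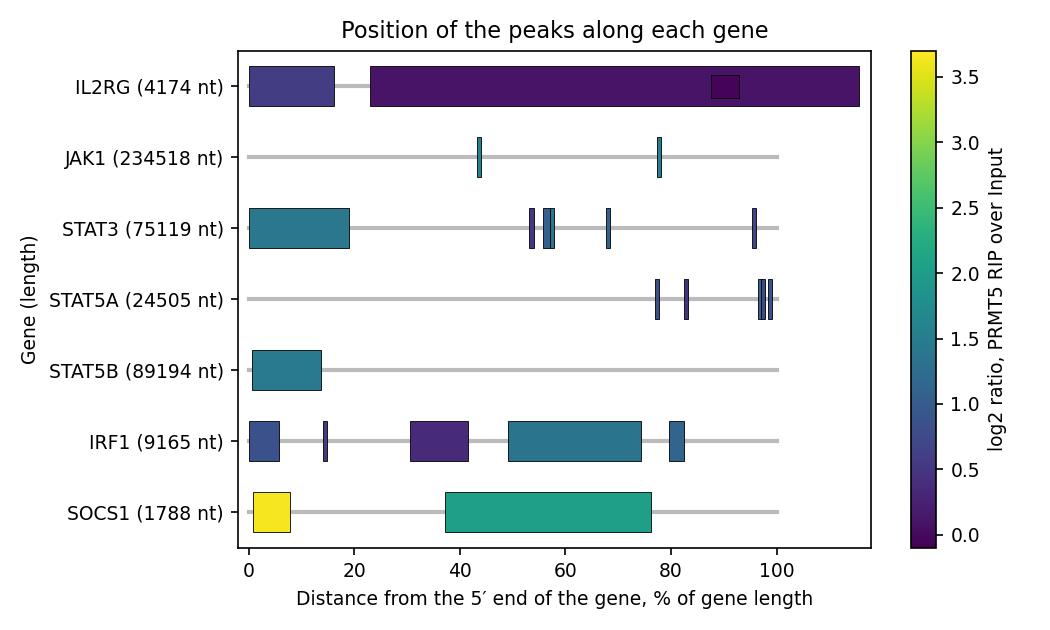
Position of the peaks along each gene, as distance from its 5′ end in % of the RefSeq gene length (introns included, lengths in brackets). Boxes are peaks, narrow ones widened so as to be visible and coloured by the log2 ratio of PRMT5 RIP over Input, with the nested IL2RG peak as the small box; STAT5A peaks lie at the 3′ end and the STAT5B peak at the 5′ end.

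IRF1 is a transcription factor induced by interferon gamma. It lies on the minus strand of chromosome 5 from 132481609 to 132490773 (ENSG00000125347.15), and its 5 peaks summed to 26.3 RPM in PRMT5 RIP against 14.6 RPM in Input, a ratio of 1.80. The peak at the start, chr5:132490250-132490777, was the most abundant, with 10.2 RPM against 5.66 RPM and a ratio of 1.80. The ratio was lower in the next peaks, with 1.59 RPM against 1.07 RPM at chr5:132489409-132489483, a ratio of 1.49, and 4.72 RPM against 3.71 RPM at chr5:132486973-132487967, a ratio of 1.27. It was higher toward the 3′ end, where chr5:132483959-132486272 had 4.95 RPM against 1.92 RPM and chr5:132483209-132483483 had 4.85 RPM against 2.21 RPM. These last 2 peaks, with ratios of 2.58 and 2.19, were the only IRF1 peaks at 2 times Input. That fold was reached by 56.6% of all peaks, and by 44.1% of those with 1 to 10 RPM in Input, the class of all 5 IRF1 peaks.

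All 5 IRF1 peaks overlapped plus-strand peaks, which listed ENSG00000197536.11 first. There were 5 such plus-strand peaks. A pair of them spanned 75267 and 67654 nt, had 23.6 and 1.94 RPM in PRMT5 RIP against 19.4 and 1.60 RPM in Input, and covered far more than IRF1. The others were narrow: chr5:132486974-132487148 had 4.26 RPM against 3.18 RPM and lay wholly within the third IRF1 peak, which had a similar ratio of 1.27 beside its 1.34. For the peaks at chr5:132487924-132487973 and chr5:132486249-132486273 the values were 0.89 against 0.63 RPM and 0.36 against 0.19 RPM. Reads of the 2 strands cannot be separated further here, because the counting is not described, and their part in the IRF1 values was not tested.

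SOCS1 inhibits JAK1, JAK2 and TYK2 directly and is itself induced by STAT signaling. It lies on the minus strand of chromosome 16 from 11254417 to 11256204 (ENSG00000185338.7) and had the highest ratio of the 7 genes, 4.77, with 7.91 RPM in PRMT5 RIP against 1.66 RPM in Input. This was above 90.7% of all genes. The peak at the 5′ end, chr16:11256067-11256191, had 1.62 RPM against 0.12 RPM, a ratio of 13.5 that was above 99.4% of all peaks. Rounding leaves it between 12.9 and 14.1. The second peak, chr16:11254842-11255541, had 6.29 RPM against 1.54 RPM and a ratio of 4.08, above 85.7% of all peaks. Both lay inside a plus-strand peak of 45462 nt with 1.32 RPM against 0.67 RPM. Its Input value was above that of the first SOCS1 peak, the share of its reads within SOCS1 was not available, and its part in the SOCS1 ratios was not tested.

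Levels were compared between genes per 100 nt of peak and only in peaks of at most 1000 nt, since wider peaks can include introns. On this scale the nested IL2RG peak was highest in Input with 11.4 RPM per 100 nt, and the IL2RG peak at the start had 2.89. Among the 4 peaks of this width at a start, those of IL2RG, IRF1, JAK1 and SOCS1, the SOCS1 peak was lowest in Input with 0.096 RPM per 100 nt. In PRMT5 RIP the same SOCS1 peak reached 1.30 RPM per 100 nt, above JAK1 at its start with 0.92 and below IRF1 at its start with 1.92. The peaks of JAK1 and SOCS1 at the start thus differed about 3-fold in Input, where JAK1 had 0.31, and had the opposite order in PRMT5 RIP.

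Of the 24 peaks, 6 covered a RefSeq start or began within 50 nt of one. Their ratios were 1.49 in IL2RG, 1.80 in IRF1, 2.67 in STAT3, 2.75 in STAT5B, 2.98 in JAK1 and 13.5 in SOCS1. The other 18 peaks had a median ratio of 1.83, from 0.954 to 4.08. Of these 18, 8 reached 2 times Input, beside 56.6% of all peaks in the list. Within the 6 genes with several peaks, the 5′-most peak had the highest plain ratio in 2, IL2RG and SOCS1, and the highest log2 ratio in 4, these and STAT3 and JAK1. In STAT3 and JAK1 the order turned on a peak of low RPM whose rounding range included the ratio of the 5′-most peak.

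The wider pathway was described from a list of 75 ligands, receptors, kinases, transcription factors, inhibitors and induced genes, of which 66 were not among the 9 genes. Of these 66, 24 had a peak, and 17 of the 24 had at least 2 times the Input RPM in sum, beside the 62.7% of all genes given above. Their median log2 ratio was 1.39, against 1.20 for all genes. None of the 6 common gamma ligands and, besides IL2RG, none of the 7 other receptor chains of this family had an assigned peak, and 44 genes of the whole list had none. Of these 44, 3 were nevertheless touched by same-strand peaks whose identifiers the naming rule left without a symbol. IL9R, a chain of this family, was touched by 4 peaks of ENSG00000124334.18. IFNAR2 was touched by 2 peaks of ENSG00000159110.22, and IL10RB by 4 peaks of that identifier and ENSG00000243646.11. These can be the genes' own peaks, so these 3 genes are not shown to lack one. The counts of genes with and without a peak therefore depend on the naming. Of 17 other inhibitors, 9 had a peak, and of the 11 STAT-induced genes, 6 had one.

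Among the JAK and STAT genes outside the studied set, TYK2 and STAT6 had peaks, and JAK2 and STAT4 had none. STAT6, which responds to IL-4, had a single peak, chr12:57111122-57111221, with 0.97 RPM against 0.32 RPM. TYK2 had 2 peaks near its 3′ end that summed to 1.53 RPM against 0.85 RPM, a ratio of 1.80. The ratio of STAT6 was 3.03, beside 2.75 in STAT5B, 1.90 in STAT3 and 1.89 in STAT5A, and no spread was available to separate neighbours among these values.

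Of the 26 pathway genes with a summed Input of at least 0.5 RPM, SOCS1 had the highest ratio, 4.77. Under this limit, SOCS7 (0.48 RPM in Input) and IFNAR1 (0.18 RPM in Input) had higher ratios, 4.85 and 5.28. Among the 26, SOCS1 was followed by MCL1, a survival protein of the BCL2 family, with 18.4 RPM against 3.95 RPM and a ratio of 4.65. GFI1, a transcriptional repressor, had 2.04 RPM against 0.50 RPM, and PTPN11, the phosphatase SHP2, had 6.54 RPM against 1.62 RPM, with ratios of 4.08 and 4.04. At the other end, IL6ST, the gp130 receptor chain, had the lowest ratio with 51.2 RPM against 47.9 RPM, or 1.07, and IL2RG was second. PIAS4, a SUMO ligase, followed with a ratio of 1.52, the phosphatase gene PTPN6 (SHP1) with 1.53, and IRF7, an interferon regulatory factor, with 1.72. The receptor chains IL2RG and IL6ST thus shared the lower end, while the receptor chains IFNAR1 and IFNGR2 had ratios of 5.28 and 2.49. The IL6ST and IFNAR1 values each rested on 1 peak, which overlapped a peak of the opposite strand.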

How the data were processed

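PRMT5 RIP and Input libraries of Jurkat cells (2 each) were represented by 1 peak list. The submitters' processing notes name fastp, HISAT2 and hg38 without versions. The peak caller, the way replicates were pooled and the read depth are not given in the sources used here. The authors deposited RPM values per peak, rounded to 0.01, and these were used as given. Input took every 0.01 step at low levels, so no step of 1 read could be seen and no counting interval was computed. The deposited fold changes, p-values and FDR, which hold the authors' own comparison, were not used.

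Peak starts were raised by 1. Peaks went to their first-listed identifier, with copies on the Y pseudoautosomal region merged. An identifier was named from the study's list (shortened here to 1999 entries) or where all its peaks touched 1 shared RefSeq gene (GRCh38.p14) on the same strand and no other identifier did so. Genes without a listed strand were accepted on either. Log2 ratios used a pseudocount of 0.01. The members, lists and rules were chosen with earlier results of these data known. All members were named, plus the 5 highest and 5 lowest pathway genes with an Input of at least 0.5 RPM and the genes nearest to each member. The remaining JAK and STAT genes, SOCS7, IFNAR1 and IFNGR2 were added after their values were seen. Some results that these rules name are not reported here. Alternatives covered pseudocounts, filters on Input and width, overlaps and identifiers. Exons, introns and UTRs were not assigned, because no transcript annotation was used here. The functions were tested on simulated data, and the tools were pandas 2.3.3, numpy 2.4.6, matplotlib 3.10.9 and Python 3.11.15.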

Additional observations from a re-analysis of the deposited data

How the results depend on the processing

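No paired analysis was possible because the replicates were already pooled in the deposited list, which also meant that leaving out a replicate could not be tried. With an Input of at least 0.5 RPM, 15 of the 24 peaks were left. Of these 15, 7 (46.7%) reached 2 times Input, beside 44.0% of all peaks under the same filter. The median log2 ratio over the peaks was 0.97 and fell to 0.38 with a pseudocount of 1, where that of all peaks fell to 0.46. The other alternatives for this median ran from 0.82 to 1.13, and the highest value came from leaving out IL2RG and IRF1, a choice made after the values were seen. The count of 12 ran from 8 to 12 in the others. With a pseudocount of 0.1 it was 9 of 24, beside 44.0% of all peaks. In peaks of at least 50 nt it was 11 of 20 (55%), beside 57.5%. Without opposite-strand overlaps it was 8 of 17 (47.1%), beside 57.0%. Without peaks of several identifiers it was 12 of 22 (54.5%), and without IL2RG and IRF1 10 of 16 (62.5%), both beside 56.6% of the unfiltered list. The log2 ratio of IL2RG turned to -0.069 without peaks of several identifiers. It was 0.23 without its nested peak, an alternative added after seeing the data. Of 47 recomputed gene ratios, 44 kept their direction and moved by less than 1.5 times. The exceptions besides this turn of IL2RG were STAT5B at 0.82 with a pseudocount of 1 and SOCS1 at 2.84 as the median of its peaks. JAK1 fell to 0.99 with a pseudocount of 1, so that of the 3 genes at 2 times Input only SOCS1, at 1.74, stayed above that fold under this setting. IRF1 and SOCS1 had no peak left without overlaps on the opposite strand. Depth per library was unknown, so low RPM values limit the ratios in a way that is known only for rounding.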

Other observations

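The named genes whose pair of summed RPM values lay nearest to a member were found over the 2 pooled values only, by distance on the log2 scale. For SOCS1 this was GTF2E2, with 7.97 RPM in PRMT5 RIP against 1.65 RPM in Input (distance 0.014). For JAK1 it was ZNF292, with 2.89 RPM and 0.94 RPM (0.046). For STAT5B it was TIAL1, with 2.14 RPM and 0.79 RPM (0.020), and for STAT5A it was SACM1L, with 4.60 RPM and 2.41 RPM (0.018). IRF1 was nearest to MAN1A2, with 26.5 RPM and 14.7 RPM (0.021). IL2RG was farther from its nearest gene, EIF3I, with 128.6 RPM and 107.6 RPM (0.089).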
